A study of Mus musculus with 20 samples.

Results

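Complement C3, its receptors and its regulators were followed at the RNA level through 9 genes, taken by symbol from a table of 28338 genes: C3, C4b, Cfp, Cr2, Itgam, Cd55, Cr1l, Cd46 and Cd59a. Complement is a chain of proteins that marks surfaces for uptake and lysis. C3 is its central protein: enzymes called convertases cut it, and the larger fragment, C3b, bonds covalently to what lies nearby. Receptors on B cells and phagocytes bind C3 fragments, while membrane regulators dismantle convertases on the host's own cells. Marginal zone B cells, at the edge of the splenic white pulp, are known for a high level of the C3 fragment receptor CD21, and follicular B cells for less of it.

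Spleens of C57BL/6 mice at postnatal day 21 were the source of all cells, which were sorted to 95 to 99% purity per the labels. Both B cells and cDC1, a class of dendritic cell known for cross-presentation, came from wild type (WT) and from March1-/- mice. A population labelled CD11cintCD24+CD8int (CD11cint cells below) came from March1-/- mice, with no WT counterpart analysed here. By its title the study concerns C3 bound to MHC class II on marginal zone B cells that acquire membrane from dendritic cells. The MARCH1 protein ubiquitinates MHC class II and so shortens its stay at the surface. The 5 groups held 4 libraries each, with total counts of 22491084 to 32751804 per library. Nothing in the labels says that the 4 libraries of a group are from separate mice, and the p-values then reflect the spread between libraries only, which may be technical.

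March1 RNA was at 137.4 to 158.6 CPM (counts scaled to library size by TMM) in WT B cells and 133.9 to 170.8 CPM in B cells labelled March1-/-. In cDC1 it was at 321.9 to 379.9 CPM in WT libraries and 253.5 to 272 CPM in March1-/- libraries. No source used here gives the part of March1 that was deleted, so counts over the whole gene check nothing. The summed level of 8 pan B markers was 8168 to 9693 CPM in the B cell and CD11cint libraries and 118.5 to 196.9 CPM in cDC1, and that of 8 cDC1 markers was 6442 to 8134 CPM in cDC1 and 685.8 to 987.2 CPM in the others. Nearly all of the latter was Wdfy4 (858.7 CPM in WT B cells), while Xcr1 was at 1.229 CPM in WT B cells and 911.1 CPM in WT cDC1. Itgax, which encodes CD11c, was at 8.32 to 12.7 CPM in CD11cint libraries and 7.05 to 12.7 CPM in March1-/- B cells, with no call between them (edgeR adjusted p = 0.929). Cd8a, which encodes the CD8 alpha chain and is also in their label, rose in CD11cint cells, at 4.208 to 6.418 CPM against 1.41 to 2.39 CPM in March1-/- B cells (edgeR adjusted p = 4.41e-07). Of the 8 cDC1 markers 5 rose in CD11cint cells over March1-/- B cells, Cd8a among them, and none fell. Tlr3, also among the 5, was called lower in March1-/- than in WT B cells (edgeR adjusted p = 0.0184). Libraries numbered 1 of March1-/- B cells and of CD11cint cells separated from the rest of their group along principal component 3, at 34.6 and 35.8 where the other libraries of the 2 groups lay between −30.5 and 8.29.

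Read per length of exon, Cr2 had the highest level of the 9 genes in B cells and in CD11cint cells, and Cfp had the highest level in cDC1. In RPKM (CPM per kilobase of exon), Cr2 was at 258.3 in WT B cells, 172.5 in March1-/- B cells and 383.7 in CD11cint cells. Cd55 followed in both B cell groups, at 50.3 and 70.95 RPKM, and Cfp was next at 40.52 and 39.09 RPKM. In CD11cint cells Cfp (51.48 RPKM) stood above Cd55 (25.89 RPKM). C3 was far lower, at 0.598 to 0.979 RPKM as a group mean, and C4b was at 0.049 to 0.137 RPKM. In cDC1 the order was Cfp, Cr1l and Cr2 in both genotypes, with Cfp at 62.51 and 74.27 RPKM and Cr1l at 4.987 and 5.014 RPKM.

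**Figure D1:**
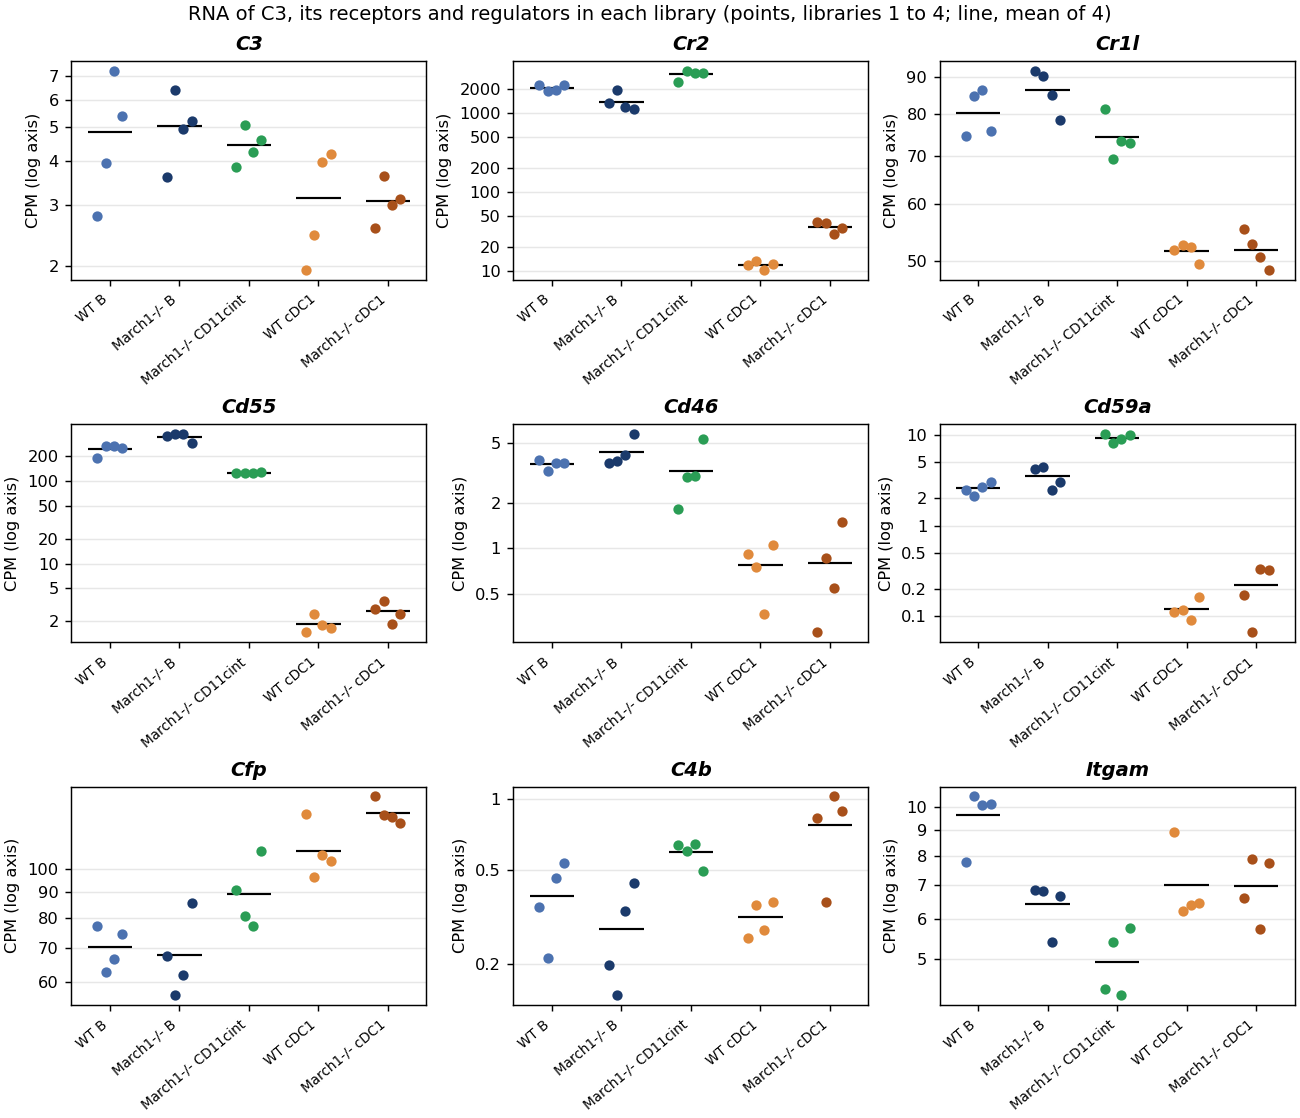
CPM of each of the 9 genes (log axis, own range per panel) in the 4 libraries of each group, with the group mean as a line. Cr2 and Cd55 set CD11cint cells apart from both B cell groups in opposite directions, Cd59a is highest in CD11cint cells, and all C3 values lie between 1.95 and 7.25 CPM.

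All 9 genes passed the filter on low counts, as did 18710 genes in all. A gene is said to be called, or to have risen or fallen, when the adjusted p of edgeR's quasi-likelihood test is under 0.05. Between CD11cint cells and March1-/- B cells 4 of the 9 genes rose (Cr2, Cd59a, Cfp and C4b) and 2 fell (Cd55 and Cr1l), where 24.7% of all tested genes were called, 12.5% higher and 12.2% lower. Between March1-/- and WT B cells 1 rose (Cd55) and 2 fell (Cr2 and Itgam), against 4.76% of all genes called, 2.31% higher and 2.44% lower. Between March1-/- and WT cDC1 2 rose (Cr2 and C4b) and none fell, against 2.86%, with 1.53% higher and 1.34% lower. The median log2 fold change of the 9 genes in these comparisons was −0.18, 0.06 and 0.25, and that of all tested genes was 0.01, −0.01 and 0.01.

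The comparisons of different cell types called most genes of the genome, so a count among 9 says little there. Between WT cDC1 and WT B cells 1 gene was higher in cDC1 (Cfp) and 7 were lower, with C4b not called, where 71.1% of all genes were called (34.9% higher, 36.2% lower). Between the same cells of March1-/- mice 2 were higher (Cfp and C4b) and 6 lower, with Itgam not called, against 71.5% (35.7% higher, 35.9% lower). CD11cint cells had 5 genes higher and 2 lower than March1-/- cDC1, with C3 and C4b not called, against 72.3% (36.6% higher, 35.7% lower). The median log2 fold change of the 9 genes was −0.64, −0.74 and 0.53 in these comparisons, beside −0.05, −0.03 and 0.03 over all genes. Comparisons that share a group of libraries are not independent of each other.

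**Figure D2:**
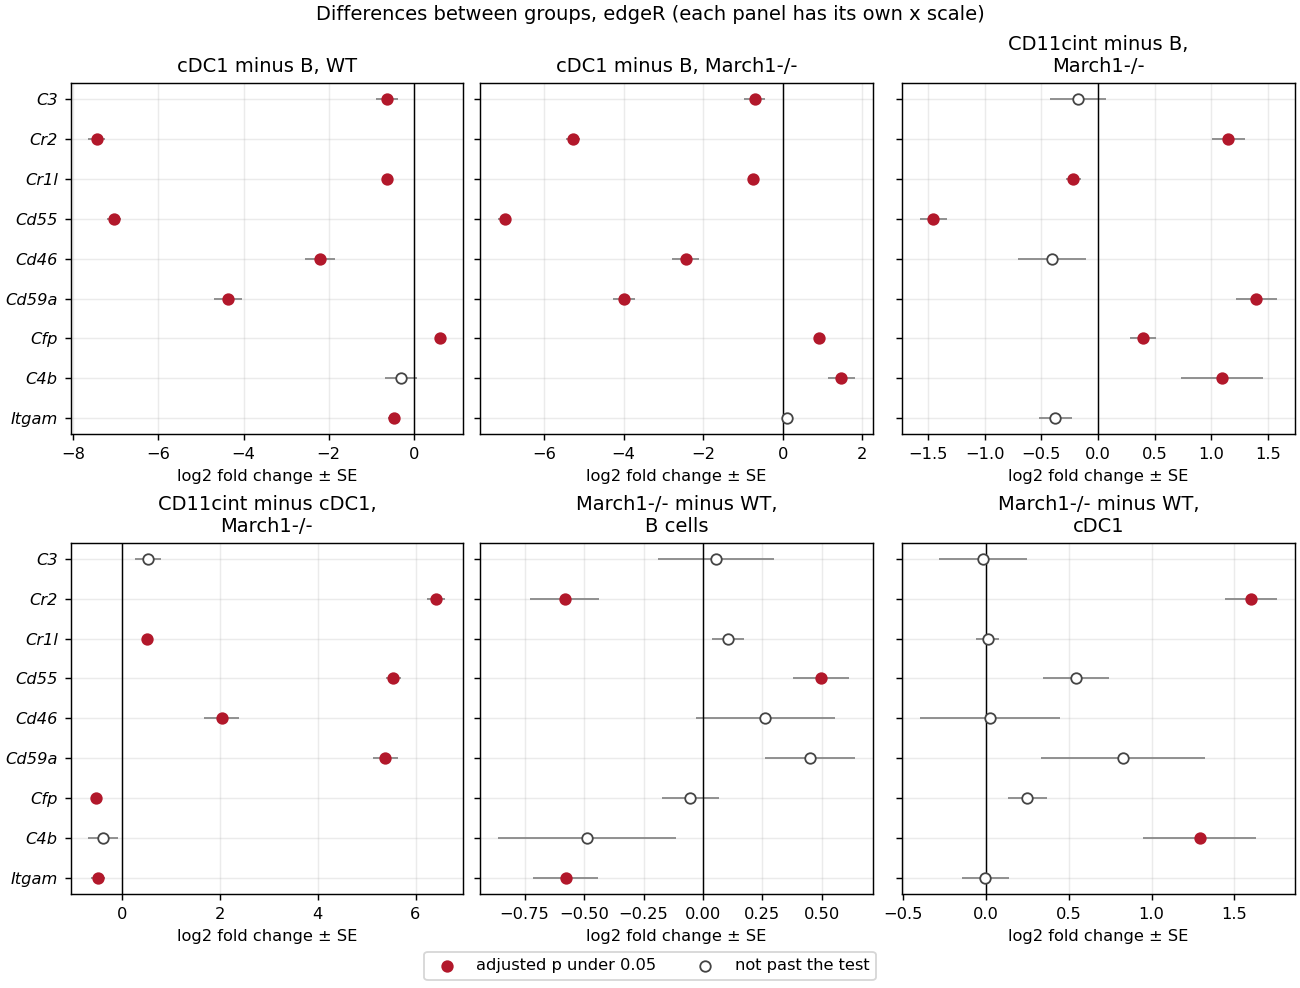
Log2 fold change ± SE of the 9 genes in 6 comparisons, filled where the edgeR adjusted p is under 0.05; each panel has its own horizontal scale. Cr2 and Cd55 lie furthest from 0 between B cells and cDC1, and on opposite sides of 0 between CD11cint cells and March1-/- B cells.

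C3 RNA was low in every group and was called only between cDC1 and B cells. C3 (ENSMUSG00000024164) lies on the minus strand at chr17:57203970-57228136 in GRCm38, and 53 to 236 reads per library fell in it. Its level in libraries 1 to 4 was 2.79, 3.94, 7.25 and 5.40 CPM in WT B cells. In March1-/- B cells it was 3.60, 6.397, 4.93 and 5.20 CPM, and in CD11cint cells 3.84, 5.08, 4.25 and 4.597 CPM. In cDC1 it was 1.95, 2.45, 3.96 and 4.19 CPM for WT and 2.56, 3.63, 2.999 and 3.10 CPM for March1-/- mice. The libraries of every neighbouring pair of groups overlapped.

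CD11cint cells did not pass the test for C3 against March1-/- B cells (−0.18 ± 0.25 on the log2 scale, edgeR adjusted p = 0.669), and within the pairs of libraries with the same number 1 of 4 was higher. C3 fell from B cells to cDC1 by 0.63 on the log2 scale in WT mice (SE 0.26, edgeR adjusted p = 0.0327) and by 0.71 in March1-/- mice (SE 0.26, edgeR adjusted p = 0.0175). The WT call ended without WT B cell library 3 (−0.37, adjusted p = 0.187) or 4 (0.0738), without WT cDC1 library 1 (0.126) or 2 (0.098), and in an edgeR fit of these groups only (0.134). The March1-/- call ended without B cell library 2 (edgeR adjusted p = 0.0685) or cDC1 library 1 (0.0524). Against March1-/- cDC1, CD11cint cells were at 0.53 ± 0.26 (edgeR adjusted p = 0.0705), which passed in a fit of these groups alone (0.00551). The genotypes did not differ past the test in B cells (0.05 ± 0.24, edgeR adjusted p = 0.954) or in cDC1 (−0.02 ± 0.27, 0.996).

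Markers of other cells that can make complement proteins were counted beside C3. The summed level of 8 macrophage markers, of which C1qa, C1qb and C1qc are complement genes themselves, was 21.55 to 55.62 CPM in the B cell and CD11cint libraries and 63.68 to 88.39 CPM in cDC1, and that of 6 monocyte markers was 38.65 to 82.02 CPM and 225.6 to 355.5 CPM. Vcam1 carried most of the macrophage sum in cDC1 (50.77 CPM in WT cDC1, 10.38 CPM in WT B cells). Gene by gene, 3 of the 8 macrophage markers were called higher in WT cDC1 than in WT B cells (Vcam1, Cd163 and Spic), 2 lower (Adgre1 and Cd5l), and C1qa, C1qb and C1qc were not called. Within WT B cells library 3, the highest for C3, was also the highest for C1qa (3.995 CPM), C1qb (4.148 CPM) and C1qc (5.132 CPM). The other groups did not repeat this for all 3 genes. In March1-/- B cells library 2 was highest for C3, C1qb and C1qc, and in CD11cint cells library 2 for C3, C1qa and C1qb. In WT cDC1 C3 peaked in library 4 and the 3 C1q genes in library 3. In March1-/- cDC1 library 2, the highest for C3 (3.629 CPM), was the lowest for C1qa (1.365 CPM) and C1qb (2.131 CPM). The part of such cells in the C3 counts was not tested.

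C4b, which encodes the C4 protein of the classical and lectin pathways, was near the lower end of what these libraries detect, at 4 to 28 reads each. A count of 3 corresponds to 0.092 to 0.133 CPM. In libraries 1 to 4 C4b stood at 0.83, 0.37, 1.02 and 0.89 CPM in March1-/- cDC1 and at 0.26, 0.36, 0.28 and 0.37 CPM in WT cDC1. Library 2 of the mutant fell within the upper WT values and the other 3 lay above all 4. The difference was 1.29 ± 0.34 on the log2 scale (edgeR adjusted p = 0.0418). That call ended without any 1 of the cDC1 libraries except March1-/- library 2 (adjusted p = 0.0769 to 0.143), without the 3 March1-/- libraries numbered 1 (0.0964) and with limma-voom (0.109).

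In CD11cint cells C4b was at 0.63, 0.60, 0.64 and 0.50 CPM, against 0.20, 0.15, 0.33 and 0.44 CPM in March1-/- B cells. All 4 CD11cint values lay above all 4 B cell values, and the rise was 1.1 ± 0.36 (edgeR adjusted p = 0.0291). It was not called without March1-/- B cell library 1 (0.0886) or 2 (0.0991), without CD11cint library 1 (0.0595), 2 (0.055) or 3 (0.0581), or without the 3 March1-/- libraries numbered 1 (0.156). Against WT B cells, at 0.21 to 0.54 CPM, it was not called (0.61, edgeR adjusted p = 0.247). C4b (ENSMUSG00000073418, minus strand, chr17:34728380-34743882) shares 34.6% of its 50-base stretches with C4a, its copy 65209 bases away, so their reads may be split. In CD11cint cells C4a was at 1.72 ± 0.13 CPM, against 1.66 ± 0.34 CPM in March1-/- B cells (SD, n = 4) and did not pass the test (0.05 ± 0.22, edgeR adjusted p = 0.896).

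Cfp encodes properdin, which stabilises the C3 convertase of the alternative pathway, and it was the only one of the 9 genes with more RNA in cDC1 than in B cells of both genotypes. Cfp (ENSMUSG00000001128) is on the minus strand at chrX:20925454-20931555, shares no 50-base stretch with another gene, and was at 62.8 to 77.3 CPM in WT B cells and 56.6 to 85.6 CPM in March1-/- B cells. WT cDC1 held 96.3 to 127.8 CPM and March1-/- cDC1 122.9 to 138.6 CPM. In both genotypes every cDC1 library lay above every B cell library (0.63 ± 0.12, edgeR adjusted p = 6.6e-05, and 0.93 ± 0.12, 3.68e-07). In CD11cint cells libraries 1 to 4 held 90.9, 80.7, 77.2 and 108.6 CPM of Cfp, against 67.4, 56.6, 61.8 and 85.6 CPM in the March1-/- B cell libraries of the same number. The groups overlapped, and each CD11cint library was above its B cell partner.

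The rise of Cfp in CD11cint cells was 0.40 ± 0.12 on the log2 scale (edgeR adjusted p = 0.0162). It was lost when only the compared groups were fitted (0.0776), without the 3 March1-/- libraries numbered 1 (0.0924), without B cell library 2 (0.0647) or 3 (0.0589) and without CD11cint library 4 (0.0695). Against WT B cells Cfp was at 0.35 in CD11cint cells (edgeR adjusted p = 0.0541). Of 8 cDC1 markers 5 rose with it over March1-/- B cells, among them Tlr3 (log2 fold change 1.82), Cd8a (1.60) and Xcr1 (1.11), and 2 of 3 markers of all conventional dendritic cells did, Flt3 and Zbtb46. Tlr3 and Flt3 were also called lower in March1-/- than in WT B cells (edgeR adjusted p = 0.0184 and 0.000709). Flt3 was at 7.154 CPM in CD11cint cells, 4.036 CPM in March1-/- and 7.762 CPM in WT B cells. For Tlr3 these means were 50.03, 14.16 and 23.7 CPM. Xcr1 was then at 3.519 ± 0.468 CPM in CD11cint cells, against 788.1 ± 44 CPM in March1-/- cDC1. The part of dendritic cell RNA in the Cfp counts was not tested. CD11cint cells held less of it than March1-/- cDC1 (−0.53 ± 0.12, edgeR adjusted p = 0.000388).

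Cr2 had more RNA in CD11cint cells than in any other group. In mice 1 gene, Cr2, gives both CD21 and the longer receptor CD35 by splicing, and counts per gene do not separate them. Cr2 (ENSMUSG00000026616) lies on the minus strand at chr1:195136811-195176716, 5224 bases from Cr1l, which is 5132 bases from Cd46, so 3 of the 9 genes are neighbours. It shares no 50-base stretch with another gene. Its promoter is shown because Cr2 is the gene that moved in all 6 comparisons. The 250 bases before its start (RefSeq, GRCm38.p6, minus strand, chr1:195176720-195176969) read 5′ to 3′, with capitals for 2 short motifs found in it:
Cr2: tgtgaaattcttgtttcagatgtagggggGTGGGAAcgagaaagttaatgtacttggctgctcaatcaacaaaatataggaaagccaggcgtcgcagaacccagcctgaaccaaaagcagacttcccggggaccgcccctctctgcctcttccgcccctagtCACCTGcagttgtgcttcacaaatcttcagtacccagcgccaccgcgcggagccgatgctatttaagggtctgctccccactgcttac

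The first capitals, GTGGGAA, are the core letters bound by RBPJ, the DNA-binding protein of Notch signalling, 221 bases before the start. They occur on either strand in 5.43% of 32526 mouse promoter windows of this length. The second, CACCTG, is the reverse complement of the E-box CAGGTG of E proteins, 88 bases before the start, found in 17.3% of the windows. A PU.1 core (GAGGAAG, 10.7%), the EBF1 motif of inverted repeats (0.787%) and a TATA box (TATAAA, 12.3%) were searched on both strands as well and have no match here. Of the 8 genes with an entry in the promoter table, Cd46 held the E-box and Itgam the PU.1 core. Letters in a window describe the sequence and say nothing of binding.

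In CD11cint libraries 1 to 4 Cr2 was at 2494, 3419, 3263 and 3273 CPM. WT B cells held 2277, 1892, 1957 and 2254 CPM, and March1-/- B cells 1329, 1939, 1199 and 1130 CPM. All 4 CD11cint libraries lay above all 8 B cell libraries, while library 2 of March1-/- B cells fell among the WT values. The rise over March1-/- B cells was 1.15 ± 0.15 on the log2 scale, or 2.22-fold (edgeR adjusted p = 3.73e-06), and 4 of 4 numbered pairs were higher. Measured against WT B cells, it was smaller, at 0.57 (edgeR adjusted p = 0.00952).

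Cr2 fell by 0.58 on the log2 scale in March1-/- B cells against WT B cells (SE 0.14, 1.497-fold, edgeR adjusted p = 0.0192). That call ended when only the compared groups were fitted (adjusted p = 0.0999), without the 3 March1-/- libraries numbered 1 (0.0572), without March1-/- B cell library 1 (0.0625), 3 (0.0869) or 4 (0.0646), and without WT B cell library 1 (0.0703) or 4 (0.0663). Markers of B cell subsets moved alongside. Of 7 marginal zone markers that leave out Cr2, 5 fell in March1-/- B cells and their summed level was 636.3 to 776.9 CPM, against 916.9 to 1218 CPM in WT B cells. Of 5 follicular markers 3 rose, with summed levels of 2546 to 3109 and 1899 to 2415 CPM, and none of 8 pan B markers was called. In CD11cint cells 7 of 7 marginal zone markers rose over March1-/- B cells (1590 to 1854 CPM). Of the 5 follicular markers 4 fell and 1, Cxcr5, rose (0.41 on the log2 scale, edgeR adjusted p = 0.0334), with a summed level of 1473 to 1689 CPM. In sorted bulk populations fewer cells of a type and less RNA per cell cannot be told apart.

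In cDC1 the genotype difference of Cr2 ran the other way. March1-/- cDC1 libraries held 40.8, 40.6, 29.1 and 34.3 CPM, against 11.8, 13.4, 10.3 and 12.3 CPM in WT cDC1. Every March1-/- library was above every WT library, far below the level in B cells. The rise was 1.60 ± 0.16, or 3.03-fold (edgeR adjusted p = 1.1e-06), and kept its call under all 15 alternatives run. Its difference from the fall in B cells was 2.18 ± 0.21 (edgeR adjusted p = 3e-06). Cr2 was the only one of the 9 genes called in that interaction, where 2.36% of all genes were called (1.49% higher, 0.871% lower). The median of the 9 genes was 0.30 and that of all genes 0.01.

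RNA of other B lineage genes moved with Cr2 in these cDC1 libraries. Of 8 pan B markers 6 were higher in March1-/- than in WT cDC1, with a median log2 fold change of 1.03 and a summed level of 148 to 196.9 against 118.5 to 133.9 CPM. None of the 8 was below the level of 3 counts. Cr2 in WT cDC1 was 0.57% ± 0.061 of its mean in WT B cells, and the pan B markers were at 0.623% to 3.24% (median 0.738%). In March1-/- cDC1 it was 2.59% ± 0.40 of the March1-/- B cell mean, within the range of the pan B markers (1.17% to 3.06%, median 2.02%). Cd55 stood at 0.757% and 0.777%. Of the 7 marginal zone markers, 3 were higher in March1-/- than in WT cDC1, S1pr3 (3.3-fold), Mzb1 (2.256-fold) and Dtx1 (2.057-fold), and Cd9, Asb2, Sema7a and Cd1d1 were not called. The summed level of the 7 was 655.3 to 714.7 against 625.3 to 690.6 CPM. Most of that sum came from Asb2, Cd9 and Cd1d1, which in WT cDC1 were at 780%, 420% and 142% of their WT B cell means. S1pr3, Mzb1 and Dtx1 were at 0.814%, 0.997% and 3.03% there, and Sema7a at 22.1%. Of the 5 follicular markers 2 were also higher in March1-/- than in WT cDC1 and none was lower. These were Cxcr5 (2.062-fold, edgeR adjusted p = 0.00483) and Ighd (1.385-fold, 0.0444).

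The ratio of Cr2 to Cd55 (CPM over CPM) was 13.8 ± 1.7 in March1-/- cDC1, between the 4.05 ± 0.82 of March1-/- B cells and the 24.8 ± 3.3 of CD11cint cells. The part of other cells' RNA in the Cr2 counts of cDC1 was not tested.

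**Figure D3:**
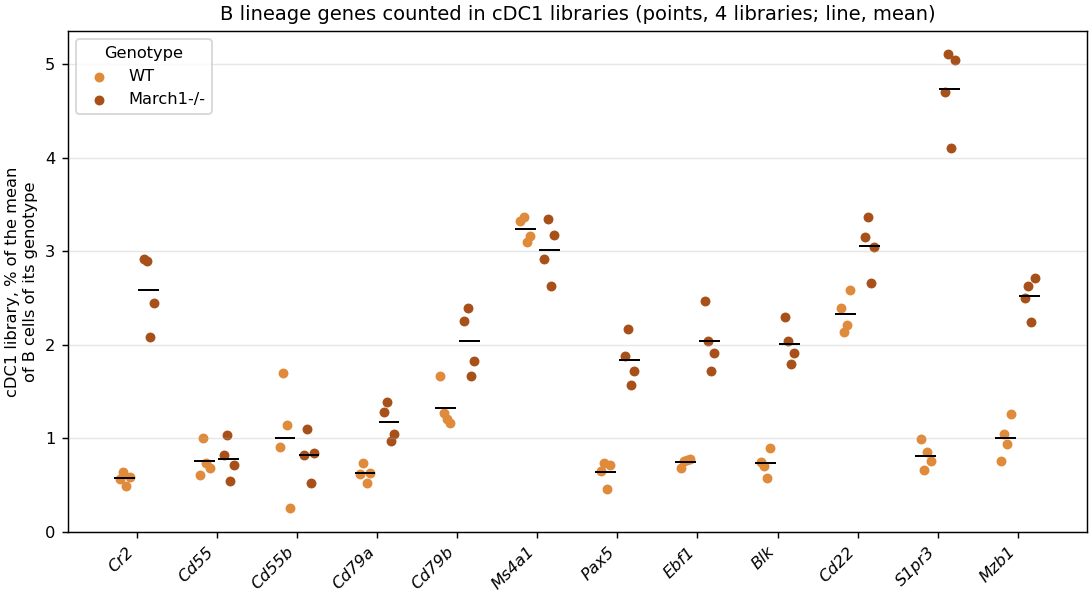
Level of Cr2, Cd55, Cd55b and B lineage markers in each cDC1 library as a percent of the mean in B cells of the same genotype (points, 4 libraries; line, mean). Cr2 is higher in all 4 March1-/- cDC1 libraries than in any WT library, and Cd55 overlaps between the genotypes.

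Itgam encodes CD11b, the alpha chain of complement receptor 3, which binds the C3 fragment iC3b. It was lowest in CD11cint cells, at 4.37, 5.42, 4.25 and 5.76 CPM. March1-/- B cells held 6.85, 6.84, 5.42 and 6.68 CPM and WT B cells 7.78, 10.5, 10.1 and 10.1 CPM. All March1-/- B cell libraries lay below all WT ones, by 0.58 on the log2 scale (SE 0.14, edgeR adjusted p = 0.0141). This fall in B cells was not called without March1-/- B cell library 3 (0.0719).

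CD11cint cells were lower in Itgam than the March1-/- B cell library of the same number in 4 of 4 pairs. The difference did not pass the main test (−0.38 ± 0.14, edgeR adjusted p = 0.0612). It passed with a block for libraries of the same number and genotype, cDC1 included (−0.39, edgeR adjusted p = 0.031). Against WT B cells CD11cint cells were at −0.96 (edgeR adjusted p = 5.23e-05). In cDC1 Itgam was at 6.24 to 8.91 CPM for WT and 5.74 to 7.89 CPM for March1-/- mice, with no call between the genotypes (0.00 ± 0.14, edgeR adjusted p = 0.998). Of its exon bases 68.67% lie also in Gm49368 on the same strand (Itgam is ENSMUSG00000030786, plus strand, chr7:128062640-128118491), so reads over them may be counted for neither gene or for the other. B-1 cells, a B cell subset, are also known to carry CD11b. Of the 5 genes on the B-1 list, which include Itgam, 4 fell in CD11cint cells, and the summed level was 28.04 to 45.3 CPM against 93.97 to 145.7 CPM in March1-/- B cells. Other cells that can carry CD11b had lower markers there as well: 4 of 5 NK markers fell and 1 rose (10.15 to 21.41 against 13.84 to 49.43 CPM), and 2 of 6 monocyte markers fell, Ly6c2 and Ccr2 (39.29 to 48.17 against 59 to 71.62 CPM). Of 8 macrophage markers Adgre1 fell and Spic rose, and none of the 5 neutrophil markers tested was called. Their part in the Itgam counts was not tested.

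Cd55 moved against Cr2 in each comparison among B cells and CD11cint cells. It encodes decay-accelerating factor, which takes C3 convertases apart on the cell's own membrane. Cd55 (ENSMUSG00000026399) lies on the minus strand at chr1:130439027-130462744. A copy of it, Cd55b, lies 16017 bases away, and 8% of the 50-base stretches of Cd55 are also found in transcripts of Cd55b. The 250 bases before each start are shown because the RNA of the copies moved together (RefSeq, GRCm38.p6, minus strand, chr1:130462745-130462994 for Cd55 and chr1:130423044-130423293 for Cd55b). Capitals mark runs of at least 12 bases that occur in both windows:
Cd55: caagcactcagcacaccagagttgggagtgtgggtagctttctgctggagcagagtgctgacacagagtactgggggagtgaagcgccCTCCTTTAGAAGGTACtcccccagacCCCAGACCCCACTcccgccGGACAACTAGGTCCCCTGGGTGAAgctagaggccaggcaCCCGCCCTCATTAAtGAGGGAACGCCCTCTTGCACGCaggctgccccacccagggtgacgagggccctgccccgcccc
Cd55b: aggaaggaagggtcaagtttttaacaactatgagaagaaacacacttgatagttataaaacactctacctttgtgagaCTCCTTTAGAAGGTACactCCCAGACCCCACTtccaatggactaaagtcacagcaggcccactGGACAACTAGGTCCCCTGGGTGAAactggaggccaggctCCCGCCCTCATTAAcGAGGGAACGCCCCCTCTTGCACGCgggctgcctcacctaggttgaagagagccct

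The runs cover 89 bases of the Cd55 window and 91 of the Cd55b window. In a pairwise alignment 170 of 210 aligned bases were identical (81.0%). Cd55b alone holds a TATAAA, 197 bases before its start.

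In CD11cint libraries 1 to 4 Cd55 was at 124.5, 124.7, 124.1 and 129.3 CPM. WT B cells held 191.1, 267.7, 264.9 and 252.8 CPM and March1-/- B cells 352.2, 373, 366.2 and 286 CPM. None of these 3 groups overlapped with another, and CD11cint cells were lowest. Cd55 fell by 1.45 on the log2 scale in CD11cint cells against March1-/- B cells (SE 0.12, 2.74-fold, edgeR adjusted p = 1.07e-08), and against WT B cells the fall was 0.96 (−0.96, 7.62e-06). It rose in March1-/- B cells over WT B cells (0.50 ± 0.12, edgeR adjusted p = 0.0137). The rise was not called without March1-/- B cell library 3 (0.053) or WT B cell library 1 (0.0621).

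Cd55b was at 7.98 ± 1.02 CPM in CD11cint cells, 21.2 ± 3.64 CPM in March1-/- B cells and 16.2 ± 2.01 CPM in WT B cells. Its fall in CD11cint cells was of similar size (−1.41 ± 0.14, edgeR adjusted p = 7.47e-08), and its difference between the genotypes in B cells did not pass the test (0.39 ± 0.13, edgeR adjusted p = 0.105). In cDC1 Cd55 was at 1.47 to 2.45 CPM for WT and 1.87 to 3.53 CPM for March1-/- mice. These groups overlapped and did not pass the test (0.54 ± 0.20, edgeR adjusted p = 0.225). The ratio of Cr2 to Cd55 (CPM over CPM) was 24.8 ± 3.3 in CD11cint cells, 8.82 ± 2.2 in WT B cells and 4.05 ± 0.82 in March1-/- B cells (SD, n = 4).

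**Figure D4:**
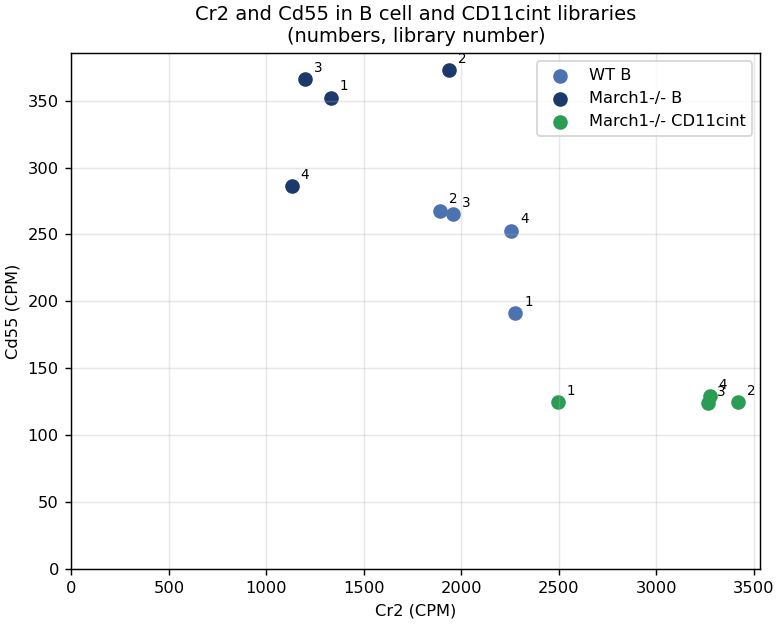
CPM of Cd55 against CPM of Cr2 in the 12 B cell and CD11cint libraries, numbered by library. CD11cint libraries lie at the lower right, March1-/- B cells at the upper left and WT B cells between them in Cd55.

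Cr1l encodes Crry, a membrane regulator of rodents that inactivates C3b and takes convertases apart, and its RNA was at similar levels in all groups but higher in B cells and CD11cint cells than in cDC1. Its level (ENSMUSG00000016481, minus strand, chr1:195097382-195131586) was 74.6 to 86.2 CPM in WT B cells and 78.4 to 91.7 CPM in March1-/- B cells. CD11cint cells held 69.3 to 81.2 CPM, WT cDC1 49.5 to 52.7 CPM and March1-/- cDC1 48.7 to 55.4 CPM. All B cell and CD11cint libraries lay above all cDC1 libraries, by 0.64 ± 0.07 in WT mice (−0.64 for cDC1, edgeR adjusted p = 1.09e-08) and 0.52 ± 0.07 for CD11cint cells over cDC1 (3.14e-07).

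CD11cint cells were slightly lower in Cr1l than March1-/- B cells (−0.22 ± 0.07, edgeR adjusted p = 0.0167), in 4 of 4 pairs. The call ended with no filter on low counts (0.0589), when only the compared groups were fitted (0.0639), without B cell library 1 (0.0597) or 2 (0.0542) and without CD11cint library 2 (0.0573). Against WT B cells there was none (−0.11, edgeR adjusted p = 0.281). Of its 50-base stretches 4.34% occur in other genes, mainly Crry-ps.

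Cd46 encodes membrane cofactor protein, which helps factor I cut C3b and C4b, and in mice it is known mainly from the testis. It was low here, at 8 to 150 reads per library. Cd46 (ENSMUSG00000016493, minus strand, chr1:195036826-195092249) was at 3.28 to 3.86 CPM in WT B cells, 3.70 to 5.76 CPM in March1-/- B cells and 1.83 to 5.30 CPM in CD11cint cells. In cDC1 it was at 0.37 to 1.06 CPM for WT and 0.28 to 1.499 CPM for March1-/- mice, below every B cell and CD11cint library (−2.20 ± 0.36 and −2.44 ± 0.35 against B cells, edgeR adjusted p = 1.14e-05 and 1.99e-06). No difference between genotypes was called. CD11cint cells were lower than the March1-/- B cell library of the same number in 4 of 4 pairs. The difference was not called (−0.40 ± 0.30, edgeR adjusted p = 0.369). Over the alternatives the lowest adjusted p was 0.0575, in an edgeR fit with a replicate block. Genes on the opposite strand, among them A330023F24Rik, share 14.19% of its exon bases, and no source used here says whether reads were counted by strand.

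Cd59a encodes CD59, which blocks assembly of the membrane attack complex at the end of the cascade, and like Cr2 it was highest in CD11cint cells. Libraries 1 to 4 held 10.3, 8.09, 8.93 and 10.01 CPM there. March1-/- B cells held 4.23, 4.41, 2.49 and 3.0 CPM and WT B cells 2.50, 2.13, 2.67 and 3.06 CPM. Every CD11cint library lay above every B cell library, and the B cell groups overlapped. The rise was 1.40 ± 0.18 over March1-/- B cells, or 2.64-fold (edgeR adjusted p = 4.09e-06), and 1.85 over WT B cells (3.09e-07), and the call over March1-/- B cells held under all 16 alternatives run.

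In cDC1 Cd59a was at 2 to 4 reads per WT library and 2 to 9 reads per March1-/- library, which is about the level of 3 counts. Cd59a (ENSMUSG00000032679, plus strand, chr2:104095801-104115354) has a copy, Cd59b, 4613 bases away, which shares 3.87% of its 50-base stretches. Cd59b moved with it, at 1.57 ± 0.21 CPM in CD11cint cells against 0.633 ± 0.085 CPM in March1-/- B cells (1.30 ± 0.22, edgeR adjusted p = 0.000117).

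Beyond the 9 genes, a list of 38 other complement genes had 30 in the table and 21 past the filter. Of these 21, 5 rose and 2 fell in CD11cint cells against March1-/- B cells, where 24.7% of all genes were called, so the count is near the background. Cd81, which encodes a tetraspanin of the CD21 co-receptor, was at 200.1 ± 22.6 CPM against 128.6 ± 11 CPM (0.64 ± 0.08, edgeR adjusted p = 5.29e-06). Clu, which encodes clusterin, a fluid-phase inhibitor of the terminal complex, was at 1.68 ± 0.42 against 0.846 ± 0.12 CPM (0.99 ± 0.28, edgeR adjusted p = 0.0122), a call lost without the 3 March1-/- libraries numbered 1 (0.0625). Itgb2, which encodes the beta chain that pairs with CD11b and CD11c, was at 141 ± 7.47 against 121.4 ± 5.17 CPM (0.22 ± 0.06, edgeR adjusted p = 0.00856). Itgb2 was not called when only the compared groups were fitted (edgeR adjusted p = 0.0629) or against WT B cells (0.04, 0.748).

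Besides Cd55b, C5ar2, a receptor for C5a fragments, fell in CD11cint cells (−0.79 ± 0.25, edgeR adjusted p = 0.0238), at 0.388 to 0.813 CPM against 0.742 to 1.36 CPM. The call ended when only the compared groups were fitted (0.0893), without the 3 March1-/- libraries numbered 1 (0.152), without B cell library 1 (0.0511) or 4 (0.089) and without CD11cint library 1 (0.0931) or 3 (0.0757). Hc, which encodes C5, was called as well but had at most 3 reads in any B cell or CD11cint library, so no fold is given. C5ar2 and Hc are named here after their values were seen. None of the 21 genes was called between the B cells of the 2 genotypes by edgeR, near the 4.76% of all genes, and 3 had an unadjusted p under 0.05 (Cd55b, Cd81 and Itgb2, at 0.00715, 0.038 and 0.00529). DESeq2 and limma-voom called 1 each, Itgb2.

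Between cDC1 and B cells 7 of the 21 genes were higher and 9 lower in cDC1 in each genotype, near the 71.1% and 71.5% of all genes called. Itgax, a relative of Itgam that forms complement receptor 4 with Itgb2, reached 1092 ± 57.6 CPM in WT cDC1, against 12.8 ± 4.26 CPM in WT B cells (6.41 ± 0.23). Hc had 40 to 75 reads per March1-/- cDC1 library and 0 in all 4 March1-/- B cell libraries. Against March1-/- cDC1, CD11cint cells were higher in 7 and lower in 8 genes (72.3% of all genes were called), with Itgax at −6.81 ± 0.23.

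Of the same list 2 genes were higher in March1-/- than in WT cDC1 and none was lower, where 2.86% of all genes were called. Clu was at 4.74, 4.33, 7.46 and 5.60 CPM against 1.47, 1.30, 0.92 and 2.12 CPM, with no overlap (1.92 ± 0.24, edgeR adjusted p = 2.69e-05). In B cells Clu was at only 0.853 ± 0.31 CPM (WT) and 0.846 ± 0.12 CPM (March1-/-).

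**Figure D5:**
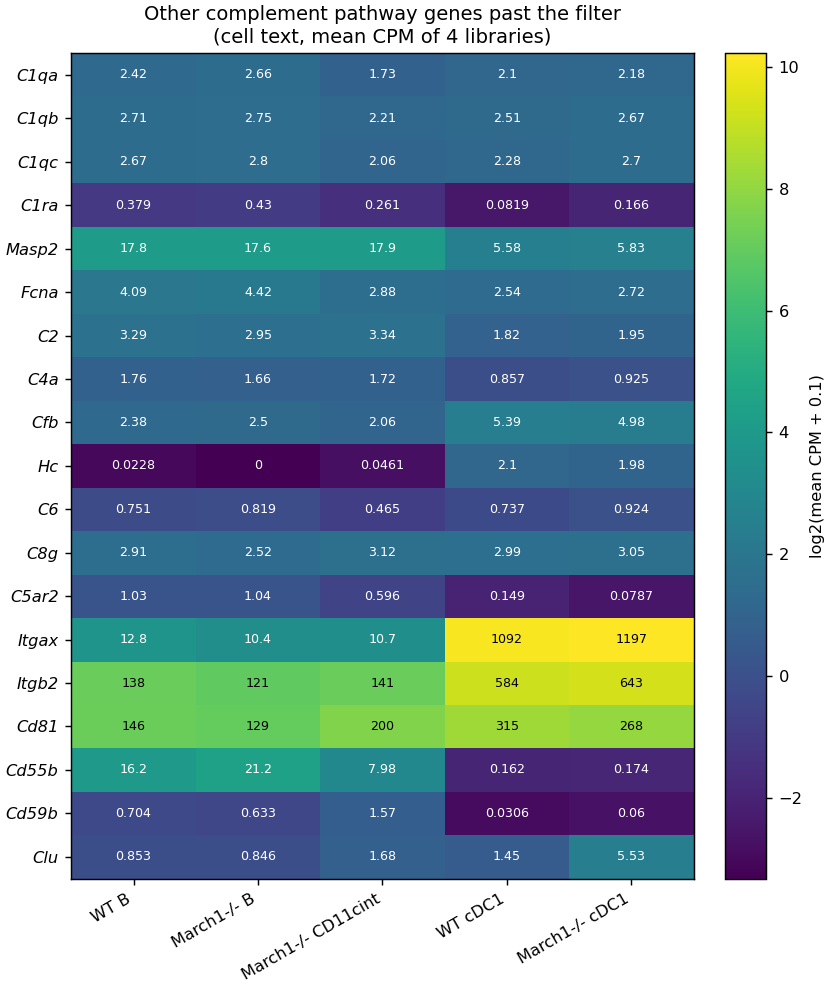
Mean CPM of 4 libraries (cell text) for 19 of the 21 other complement genes past the filter, coloured by log2 of the mean CPM plus 0.1. Cd55b is higher in the B cell and CD11cint columns, Itgax, Itgb2 and Hc in the cDC1 columns.

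The genes most like each of the 9 in pattern were found by Pearson's r of log2 CPM over all 20 libraries, among 11126 genes or 1 more with a mean of at least 10 CPM in a group. These values describe libraries that share groups, and the contrast of B cells with cDC1 dominates them. Cr2 was closest to S1pr1 (r = 0.997), Blnk (0.996) and S1pr3 (0.996), and Cd55 to Ighd (0.999), Fcer2a (0.999) and Gimap3 (0.998). Cr1l (Paip2, 0.985), Cd59a (Tk2, 0.984), Cd46 (Ppp3cb, 0.969) and Cfp (Gm45799, 0.942) followed. C3 had no gene above 0.793 (Zfp346), C4b none above 0.775 (Gaa) and Itgam none above 0.765 (Adgre1).

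Over the 12 B cell and CD11cint libraries alone, Cr2 was closest to Fam49a (r = 0.986), Plxnc1 (0.983) and Cdon (0.982). Cd55 was closest to Gm11346 (0.992), to Fcer2a (0.990), which encodes the follicular B cell marker CD23, and to Pde2a (0.986).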

How the data were processed

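Gene counts were deposited by the authors as raw counts of reads per gene and library, also by lane, with no normalization. Per the submitters' processing notes the genome was GRCm38/mm10, and the tools, listed with no role, were STAR, Subread, limma, edgeR, FastQC and CASAVA. Sources used here give neither the strand setting of counting nor the mice per library. The sums of the 2 lanes equalled the deposited count in 566760 of 566760 cells. Replicate libraries differed by far more than sampling noise (chi-square per degree of freedom 4.55 to 71.4 over 30 pairs, and 0.989 to 1.031 between lanes of 1 library).

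Counts of 18710 genes that passed filterByExpr (99.9459% of all counts) were scaled by TMM and tested with edgeR 4.0.16 (R 4.3.3; quasi-likelihood, robust), 5 groups of 4 libraries in 1 fit without a block, 15 residual degrees of freedom, with Benjamini-Hochberg adjustment over all tested genes and a threshold of 0.05. CPM used TMM-scaled totals, and RPKM divided by GENCODE M21 exon length (28290 of 28338 gene IDs matched). The fit was tested on simulated data. The 9 genes, the lists of markers and pathway genes and the tests were chosen with earlier results of these data known. Named are all 9 genes, their partners and copies, the 3 other pathway genes with the largest change per comparison among those called with at least 1 CPM in the higher group, and the 3 genes most like each member. Some genes that this rule names are not reported here.

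Alternatives were RLE scaling, no filter, DESeq2 1.42.0, limma-voom (limma 3.58.1), the compared groups alone, replicate blocks, each library left out in turn, and the 3 March1-/- libraries numbered 1 left out together. WT in place of March1-/- B cells as the reference for CD11cint cells was added after seeing the data. Libraries of March1-/- B cells and CD11cint cells with the same number in the labels deviated together from their group means (r = 0.503, 0.213, 0.243 and 0.407 across genes) and were taken as paired. No other pair of groups met the rule for pairing, an r above a set limit at all 4 numbers. Some still deviated together. For March1-/- B cells with March1-/- cDC1 r was 0.166, 0.092, 0.088 and 0.202. CD11cint cells with March1-/- cDC1 gave 0.233, 0.166, 0.034 and 0.369, and WT B cells with WT cDC1 0.091, 0.089, 0.117 and 0.315. Each was above the highest r of that B cell or CD11cint library with another number. For WT with March1-/- B cells r was −0.042, 0.041, 0.051 and 0.043. WT with March1-/- cDC1 gave 0.262, 0.166, 0.013 and 0.221, each above the highest r of that WT library with another number. Libraries of different genotypes cannot share a mouse, so deviating together does not show that libraries came from the same mice.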

Additional observations from a re-analysis of the deposited data

Results flagged for a closer look

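Within groups of 4 libraries, 5 of the 45 sets of values of the 9 genes held 1 library far from the others, where chance gives about 1 in 20. Cr2 was lower in CD11cint library 1 (2494 CPM) than in the other 3 (3263 to 3419 CPM). Cd55 in CD11cint cells was at 129.3 CPM in library 4 and 124.1 to 124.7 CPM in the others, a small gap in a narrow group. Itgam was apart in 3 groups: in WT B cells library 1 was low (7.782 CPM against 10.11 to 10.49), in March1-/- B cells library 3 was low (5.416 CPM against 6.68 to 6.847), and in WT cDC1 library 1 was high (8.909 CPM against 6.242 to 6.472).

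The difference between March1-/- and WT mice was not the same in cDC1 as in B cells for Cr2, Clu and Itgb2, by edgeR's test of the interaction. It was 2.18 log2 units higher in cDC1 for Cr2 (SE 0.21, adjusted p = 3e-06) and 1.93 for Clu (SE 0.39, adjusted p = 0.00652). For Itgb2 it was 0.32 (SE 0.08, edgeR adjusted p = 0.0374). The Itgb2 call was lost with RLE scaling (adjusted p = 0.0614) with no filter (0.144), and without any 1 of the 16 B cell and cDC1 libraries (0.0598 to 0.0995) except WT B cell library 3, March1-/- B cell library 2, WT cDC1 library 1 and March1-/- cDC1 library 4.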

How the results depend on the processing

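Of the 63 tests of the 9 genes 35 were called, 26 of them under every alternative listed with the methods, 9 were lost under at least 1, and 4 further tests were called under at least 1. None was reversed. In March1-/- against WT B cells 3 genes were called, and 0 to 3 with each library left out in turn. In March1-/- against WT cDC1 2 were called, 1 with limma-voom, 1 when only the compared groups were fitted (where C4b did not pass the filter), 1 without the 3 March1-/- libraries numbered 1, and 1 to 2 with single libraries left out. In CD11cint against March1-/- B cells 6 were called, 3 to 6 with single libraries left out, and 4 with WT B cells as the reference, an alternative chosen after seeing the data. The interaction called 1, and 1 to 2 with single libraries left out. Cell type comparisons called 7 to 8 under leave-one-out. Of the other pathway genes, 0 were called between the B cell genotypes, 1 with DESeq2, 1 with limma-voom and 0 to 1 with single libraries left out. In CD11cint against March1-/- B cells 7 were called, 4 in the compared groups alone, 4 without the libraries numbered 1 and 5 to 7 with single libraries left out.

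A replicate block joined libraries of the same number, either across all groups or within genotype, with cDC1 included in both. Each block gave 2 interaction calls among the 9 genes, with C4b added (edgeR adjusted p = 0.0345 and 0.0388). The block across all groups gave 2 calls among other pathway genes between the B cell genotypes. C3 in CD11cint cells against March1-/- cDC1 passed with either block (0.0169 and 0.000269). Beside these and Itgam, the block changed no call of the 9 genes.

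Over all genes, calls between the B cell genotypes went from 890 to 590 and 574 without March1-/- B cell library 1 or 3, and to 591 and 592 without WT library 1 or 4. CD11cint against March1-/- B cells went from 4613 to 3018 in the compared groups alone and 2625 against WT B cells, and the interaction from 441 to 697 with DESeq2, 680 with the replicate block across groups and 978 within genotype. The causes were not tested. The precision of C4b in all groups, and of Cd46 and Cd59a in cDC1, is limited by the few reads per library given above.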
